A study of Mus musculus with 10 samples.

Results

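Expression of RAS-like GTPases was followed in mouse acute myeloid leukaemia (AML) as a set of 9 genes chosen by gene name: Nras, Hras, Rras, Rras2, Mras, Rap1a, Rap1b, Rala and Ralb. All 9 were found among the 38215 genes listed, Hras under its older symbol Hras1, and all 9 had enough counts to be tested. The leukaemia had been started in lineage-depleted bone marrow with AML1-ETO and NrasG12D, carried by the retrovirus MSCV-IRES-GFP, so the cells of both groups bear an introduced Nras oncogene beside their own Nras gene. The first recipients of the transduced cells were Rag2-/-γc-/- mice, a strain without T, B or NK lymphocytes. GFP+ spleen cells from them were moved to secondary recipients, 5 immunocompetent C57BL/6J mice (libraries 1, 3, 4, 5 and 6) and 5 immunodeficient Rag2-/-γc-/- mice (libraries 7 to 11), and RNA of the GFP+ splenocytes was sequenced once these had AML. The labels do not give the species of the introduced Nras sequence, the number of primary leukaemias behind the 10 recipients, or the recipients' age and sex. The tests therefore speak of variation among recipients, and the number of independent leukaemias behind it is not known.

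RAS-like GTPases are molecular switches that pass signals on while bound to GTP. Exchange factors load them with GTP, and GTPase-activating proteins make them hydrolyse it. Nras and Hras drive the RAF-MEK-ERK and PI3-kinase routes of growth signalling, and activating NRAS mutations are frequent in human AML. Rap1a and Rap1b regulate integrin adhesion, Rala and Ralb act on exocytosis through the exocyst, Rras and Rras2 bear on adhesion and survival, and Mras helps to activate RAF kinases together with Shoc2.

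The glycine that the G12D change replaces in Nras lies in the nucleotide-binding loop that all 9 genes encode, and the coding sequence around it is shown because it marks what the members share at the position the oncogene changes. Each line gives, for a relative of Nras, 33 bases of the reference coding sequence (GENCODE M21, GRCm38, sense strand, 5′ to 3′), with the codon of that glycine in capitals and codons counted from 1 at the start codon. It is codon 12 in Nras, Hras, Rap1a and Rap1b, codon 22 in Mras, codon 23 in Rras2, Rala and Ralb, and codon 38 in Rras.
Hras: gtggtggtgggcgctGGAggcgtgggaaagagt
Rras: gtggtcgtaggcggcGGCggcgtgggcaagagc
Rras2: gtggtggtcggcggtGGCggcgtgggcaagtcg
Mras: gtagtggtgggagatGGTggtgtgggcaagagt
Rap1a: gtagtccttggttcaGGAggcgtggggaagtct
Rap1b: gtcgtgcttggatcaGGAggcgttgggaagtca
Rala: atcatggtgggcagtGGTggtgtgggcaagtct
Ralb: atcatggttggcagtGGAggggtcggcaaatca
A glycine codon stood there in all 9 genes, and the codons were not all spelled alike. When whole coding sequences were aligned to that of Nras, Hras was closest, with 75.9% of aligned bases identical, and the other 7 had 59.8 to 65.0%. Bases that stood against a gap were left out. Reads were 75 bases long, and Nras transcripts held no run of that length found in a transcript of another annotated gene on either strand, nor did those of Hras, Rras, Rras2, Mras, Rap1b, Rala or Ralb. Rap1a shared 4.48% of its 75-base runs with Gm9392, and its expected counts were not whole in 9 of 10 libraries, so its values depend on how reads were divided between the 2 genes. The count of Nras holds reads of the endogenous transcript and any that aligned from the retroviral copy, and these cannot be told apart in a table of counts per gene.

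Library depth was 32703932 to 44097690 expected counts for C57BL/6J and 28157745 to 62461126 for Rag2-/-γc-/- recipients. The leucocyte and myeloid genes Ptprc (472 to 743 against 410 to 620 CPM, counts scaled to library size), Spi1 (320 to 483 against 327 to 431 CPM) and Itgam (398 to 789 against 652 to 1161 CPM) were abundant in both groups. Of the progenitor and blast genes, Mpo (0 to 0.305 against 0.131 to 0.796 CPM) and Kit (3.21 to 7.52 against 0.163 to 0.434 CPM) were low, while Cd34 had 98.6 to 169 against 202 to 489 CPM. Over all 12 myeloid and dendritic markers the sum was 4354 to 4933 against 4028 to 4643 CPM, but edgeR called 2 of the 12 higher and 3 lower. Groups lay apart in both directions, as for Irf8 (1829 to 2220 against 917 to 1787 CPM), Flt3 (10.8 to 50.2 against 3.20 to 6.76 CPM) and Csf1r (13.4 to 46.4 against 54.8 to 91.2 CPM). T cell markers (9 genes, 6 of them averaging under 1 CPM) came to 60.0 to 114 CPM in C57BL/6J and 18.0 to 44.0 CPM in Rag2-/-γc-/- recipients, most of it Cd8a, which some dendritic cells also express. B and plasma cell markers (7 genes) came to 116 CPM in C57BL/6J library 1, 3.65 to 18.9 CPM in the other 4 and 1.99 to 2.91 CPM in Rag2-/-γc-/- recipients. Erythroid markers (8 genes) came to 14.9 to 144 against 73.9 to 237 CPM, and red pulp macrophage markers (7 genes) to 23.2 to 201 against 95.1 to 315 CPM. NK cell (17.9 to 23.3 against 8.40 to 21.1 CPM), neutrophil granule (3.45 to 26.6 against 4.77 to 26.9 CPM), megakaryocyte (6.96 to 12.1 against 1.80 to 7.17 CPM) and stromal (1.23 to 2.03 against 0.653 to 1.42 CPM) sums were low, and of all these markers only Dcn was at 0 in all 10 libraries. Rag2 (2.07 ± 0.344 against 4.53 ± 2.11 CPM) and Il2rg, the gene of γc (13.2 ± 2.95 against 11.1 ± 0.558 CPM, SD, n = 5 each), had counts in both groups. They do not check the recipients' genotype, because GFP marks the transduced donor cells. In bulk RNA, fewer cells of a type and less RNA per cell cannot be told apart.

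Nras was the only member called with all libraries in edgeR, and among the 8 members above 5 CPM in every library it varied most. It had 374, 347, 360, 301 and 302 CPM in C57BL/6J libraries 1, 3, 4, 5 and 6, against 956, 787, 745, 348 and 370 CPM in Rag2-/-γc-/- libraries 7, 8, 9, 10 and 11. Libraries 7, 8 and 9 stood at 2.21 to 2.84 times the C57BL/6J mean, while libraries 10 and 11 lay at 1.03 and 1.10 times that mean, inside the C57BL/6J range, so the groups overlapped. Over all libraries Nras averaged 337 ± 33.6 CPM in C57BL/6J and 641 ± 270 CPM in Rag2-/-γc-/- recipients (SD, n = 5 each). The corresponding log2 ratio was -0.93 ± 0.26 (SE, 95% interval -1.50 to -0.36), or 1.91-fold higher in Rag2-/-γc-/- recipients. Nras passed the threshold of 0.05 only just, as lower in C57BL/6J recipients (edgeR's quasi-likelihood F test with Benjamini-Hochberg adjustment, adjusted p = 0.0498).

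That call did not outlast small changes. It was lost on leaving out any single C57BL/6J library, or library 7, 8 or 9, which makes 8 libraries in all (edgeR adjusted p = 0.0702 to 0.120), and was kept without library 10 (0.0106) or 11 (0.0198). Without libraries 10 and 11 the log2 fold change of Nras was -1.30 ± 0.11 (edgeR adjusted p = 0.000127). Without libraries 7, 8 and 9 it was -0.10 ± 0.12, with a 95% interval of -0.38 to 0.19 (edgeR adjusted p = 0.859). Both splits were chosen with earlier results known, and they part the libraries where the Nras values themselves divide. Their p-values are therefore given as a description and are no independent test. Over all members, 1 was called lower and 1 higher without libraries 10 and 11, where 17.4% of tested genes were lower and 19.3% higher. Without libraries 7, 8 and 9, edgeR called 0 members, against 1.87% of tested genes, both at an adjusted p under 0.05. With 9 members, a count of 0 is near that share. The count of members was also 0 at an unadjusted p under 0.05, for which no share of tested genes is given. Marker sums also differed between libraries 7 to 9 and libraries 10 and 11. Red pulp macrophage (150 to 315 against 95.1 to 140 CPM), NK cell (15.4 to 21.1 against 8.40 to 10.7 CPM) and megakaryocyte sums (4.71 to 7.17 against 1.80 to 3.89 CPM) were higher in libraries 7 to 9. Myeloid and dendritic (4028 to 4061 against 4393 to 4643 CPM), T cell (18.0 to 29.4 against 40.2 to 44.0 CPM) and B and plasma cell sums (1.99 to 2.35 against 2.91 CPM in both) were lower there, and erythroid sums overlapped (127 to 237 against 73.9 to 169 CPM). In Rag2-/-γc-/- libraries the NK cell sum was mostly Klrd1 (7.78 to 18.6 CPM), with Ncr1 and Gzma at 0. The T cell sum there was mostly Cd8a (14.9 to 41.2 CPM), with Cd2 and Trac at 0. These sums therefore do not show NK or T cells in those libraries. The part of other cells in the Nras values was not tested.

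Of the 9 members, 1 was called lower and 0 higher in C57BL/6J recipients. Among all 13967 tested genes 4.47% were called lower and 3.32% higher, 7.79% in all. The count higher was also 0 at an unadjusted p under 0.05 and in DESeq2. It was 2 in limma-voom with sample quality weights, where 3306 of 13967 tested genes were called higher. For none of the 9 did the 5 values of one group lie clear of those of the other, as they did for 8.50% of tested genes.

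**Figure D1:**
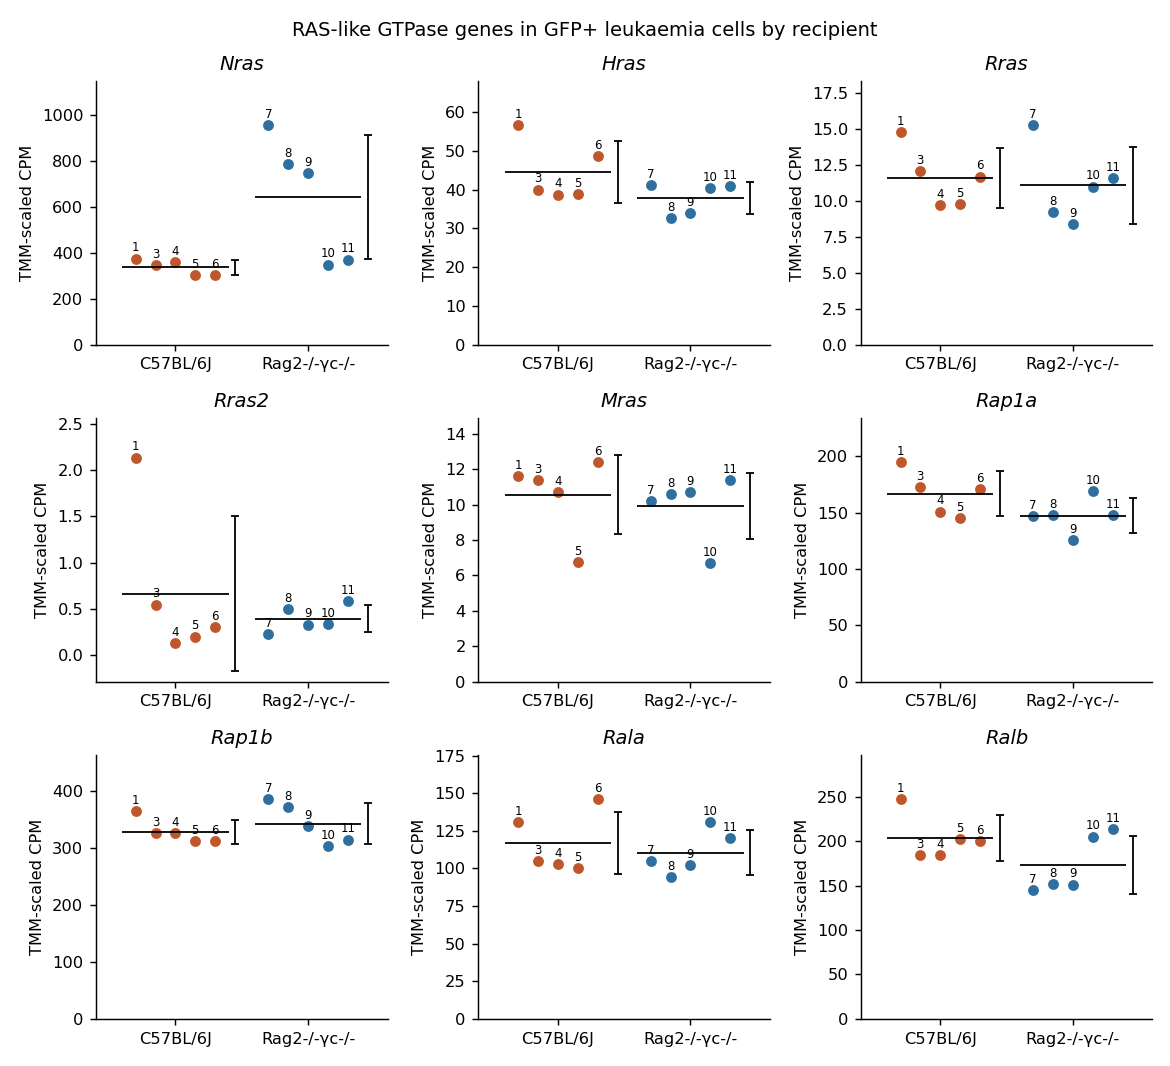
TMM-scaled CPM of each gene in every library (points, labelled with the library number) of C57BL/6J and Rag2-/-γc-/- recipients, with the group mean (line) and SD (bar, n = 5 each), each panel with its own axis. Nras in Rag2-/-γc-/- libraries 7, 8 and 9, at 745 to 956 CPM, lies above every other library, and in all 9 panels the groups overlap.

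Nras lies on chromosome 3 at 103058339 to 103067914 (GRCm38, + strand, protein-coding). Runx1, the mouse counterpart of the AML1 part of the other oncogene, averaged 53.1 ± 5.18 CPM against 45.2 ± 12.6 CPM (SD, n = 5 each), with a log2 fold change of 0.23 ± 0.16 (edgeR adjusted p = 0.381). As for Nras, any reads that aligned to Runx1 from the retroviral AML1-ETO cannot be told apart from endogenous ones.

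The 3 genes whose pattern was most like that of Nras, by Pearson's r of log2 CPM over the 10 libraries among 9054 genes averaging at least 5 CPM, were Morf4l2, Tmem167b and Pik3ap1, each at 0.99. The points fall into 2 clusters, libraries 7, 8 and 9 and the rest, and over the other 7 libraries r was 0.87, 0.82 and 0.84. Morf4l2 encodes a relative of a chromatin protein, and Pik3ap1 an adaptor of PI3-kinase signalling. Morf4l2 had 146 to 168 CPM in C57BL/6J libraries, against 257, 223, 222, 157 and 168 CPM in Rag2-/-γc-/- libraries 7 to 11. Pik3ap1 had 146 to 170 CPM, against 262, 238, 239, 170 and 176 CPM. The order of libraries was near that of Nras but the span was smaller: the highest library had 1.75, 1.68 and 1.80 times the lowest for Morf4l2, Tmem167b and Pik3ap1, and 3.18 times for Nras. None of the 3 was past the threshold (edgeR adjusted p = 0.0888, 0.115 and 0.0594).

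**Figure D2:**
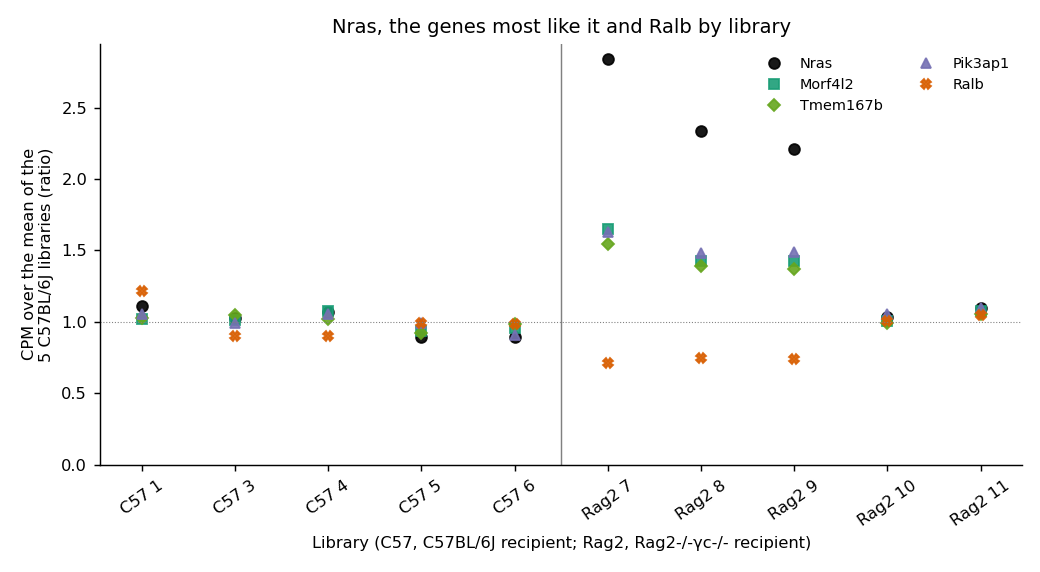
CPM in each library divided by the mean of the 5 C57BL/6J libraries, for Nras, the 3 genes most like it and Ralb (C57BL/6J libraries left of the line, Rag2-/-γc-/- libraries right of it). In Rag2-/-γc-/- libraries 7, 8 and 9 Nras lies at 2.21 to 2.84 and Ralb at 0.713 to 0.747, while in libraries 10 and 11 both lie between 1.01 and 1.10.

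Hras, the closest relative of Nras in the set (chromosome 7, 141189105 to 141194005, - strand), had 56.7, 40.0, 38.7, 38.8 and 48.7 CPM in C57BL/6J libraries 1, 3, 4, 5 and 6, against 41.1, 32.7, 33.9, 40.4 and 41.0 CPM in Rag2-/-γc-/- libraries 7 to 11. Only C57BL/6J libraries 1 and 6 lay above all Rag2-/-γc-/- libraries. Its log2 fold change was 0.24 ± 0.13, with a 95% interval of -0.05 to 0.52 (edgeR adjusted p = 0.267). Rras (chromosome 7, 45017978 to 45021646, + strand) had 9.72 to 14.8 CPM, against 8.40 to 15.3 CPM, with the top value in library 7 where Nras was also highest. Its lowest values, 9.25 and 8.40 CPM, were in libraries 8 and 9, where Nras was high too. Pearson's r of log2 CPM between Rras and Nras was -0.03 over the 10 libraries. The log2 fold change of Rras was 0.06 (95% interval -0.33 to 0.45), and its sign turned when library 1 or library 9 was left out.

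Mras (chromosome 9, 99385422 to 99436881, - strand) had 11.6, 11.4, 10.7, 6.74 and 12.4 CPM in C57BL/6J libraries 1, 3, 4, 5 and 6, against 10.2, 10.6, 10.7, 6.70 and 11.4 CPM in Rag2-/-γc-/- libraries 7 to 11. One library of each group was low, C57BL/6J library 5 and Rag2-/-γc-/- library 10, and the others lay close together. The log2 fold change was 0.09 (95% interval -0.32 to 0.50), and its sign turned without Rag2-/-γc-/- library 10. Rras2 (chromosome 7, 114046785 to 114117781, - strand) was near the detection limit, with 70, 22, 5, 9 and 12 counts in C57BL/6J libraries 1, 3, 4, 5 and 6, against 13, 21, 9, 10 and 23 counts in Rag2-/-γc-/- libraries 7 to 11. C57BL/6J library 1, at 2.14 CPM, was the highest by far, and the other 9 libraries lay at 0.127 to 0.582 CPM. The log2 fold change of Rras2 was 0.73 with all libraries (edgeR adjusted p = 0.511) and -0.41 without C57BL/6J library 1. That library also had the highest sum of B and plasma cell markers, 116 CPM, and the highest erythroid (144 CPM) and red pulp macrophage (201 CPM) sums of its group. The part of such cells in its Rras2 counts was not tested.

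The adhesion regulators Rap1a and Rap1b were abundant and the steadiest members. Rap1b (chromosome 10, 117814471 to 117845935, - strand) had 365, 327, 327, 312 and 312 CPM in C57BL/6J libraries 1, 3, 4, 5 and 6, against 386, 372, 339, 303 and 315 CPM in Rag2-/-γc-/- libraries 7 to 11. Libraries 7 and 8 were its highest, but the SD over all 10 libraries was 8.58% of the mean, against 49.5% for Nras. Its log2 fold change was -0.06 ± 0.09, with a 95% interval of -0.26 to 0.13 (edgeR adjusted p = 0.676). Rap1a (chromosome 3, 105727267 to 105801330, - strand) had 195, 173, 151, 145 and 171 CPM in C57BL/6J libraries 1, 3, 4, 5 and 6, against 147, 148, 126, 169 and 148 CPM in Rag2-/-γc-/- libraries 7 to 11. Its groups overlapped over most of their range. The Rap1a log2 fold change was 0.18 ± 0.10 with a 95% interval of -0.05 to 0.40 (edgeR adjusted p = 0.294).

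Ralb ran against Nras across the Rag2-/-γc-/- libraries. Ralb (chromosome 1, 119470305 to 119504794, - strand) had 247, 184, 184, 202 and 200 CPM in C57BL/6J libraries 1, 3, 4, 5 and 6, against 145, 152, 151, 205 and 213 CPM in Rag2-/-γc-/- libraries 7 to 11. Libraries 7, 8 and 9 were its 3 lowest, below every C57BL/6J library, while 10 and 11 lay inside the C57BL/6J range. With all libraries the log2 fold change of Ralb was 0.23 ± 0.13 and not past the threshold (edgeR adjusted p = 0.291). Without libraries 10 and 11 it was 0.45 ± 0.11 and past it (edgeR adjusted p = 0.0103), in a comparison where 19.3% of tested genes were called higher. Without libraries 7, 8 and 9 it was -0.04 ± 0.14 (edgeR adjusted p = 0.946). These splits, chosen with earlier results known, also part the libraries where Ralb itself divides, so their p-values are a description only. The paralog Rala (chromosome 13, 17880575 to 17944239, - strand) had 131, 105, 103, 100 and 146 CPM in C57BL/6J libraries 1, 3, 4, 5 and 6, against 105, 94.3, 102, 131 and 120 CPM in Rag2-/-γc-/- libraries 7 to 11. Its values overlapped throughout, with a log2 fold change of 0.08 (95% interval -0.20 to 0.37) that turned sign without C57BL/6J library 6.

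**Figure D3:**
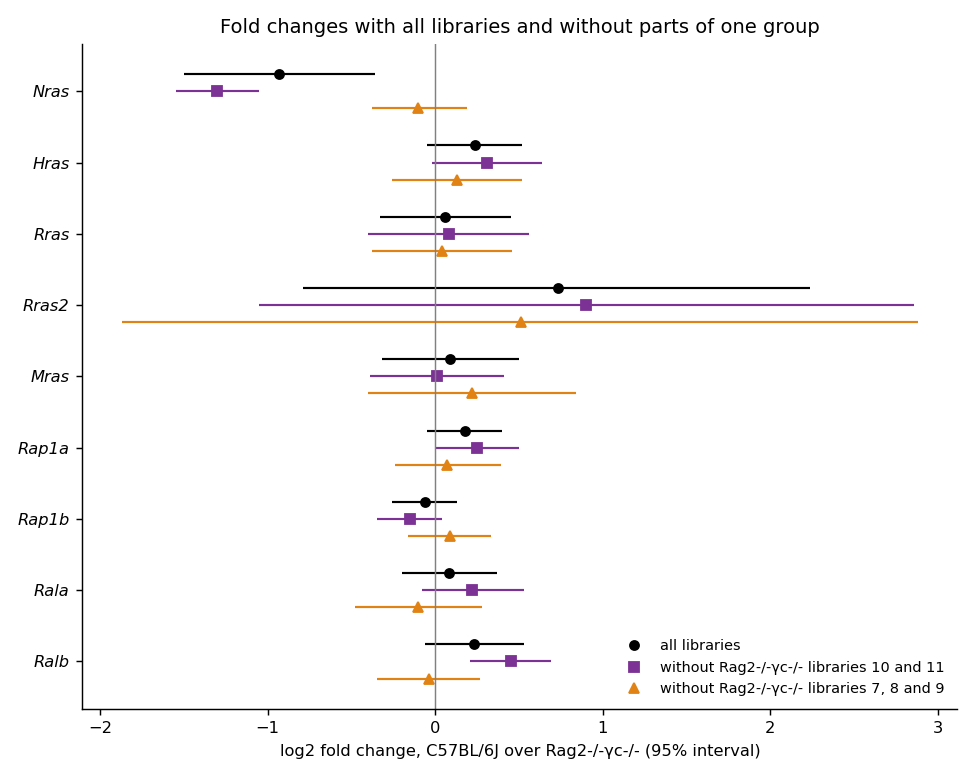
Log2 fold changes, C57BL/6J over Rag2-/-γc-/- recipients, with 95% intervals, for the 9 genes with all 10 libraries (circles), without Rag2-/-γc-/- libraries 10 and 11 (squares) and without libraries 7, 8 and 9 (triangles). Nras moves to -1.30 and Ralb to 0.45 in the first of these subsets, and to -0.10 and -0.04 in the second.

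By the same likeness measure the gene nearest to Hras was Sugt1 (r = 0.97 over 10 libraries), to Rap1b Cdkn2d, a cell cycle inhibitor gene (0.97), to Rap1a Ghitm (0.93), to Ralb Prmt7, an arginine methyltransferase gene (0.98), to Rala Lmo4 (0.95), to Rras Tnfaip8l1 (0.91) and to Mras Cmtm8 (0.86). For Rras2 it was Vapb, at 0.98 over all libraries and 0.92 without the 2 libraries farthest from the median, and C57BL/6J library 1 was the highest for both. Without the 2 libraries farthest from the median of Mras, its r with Cmtm8 was 0.69. The values over 10 libraries are the top ones among 9054 genes over libraries that share their normalisation, and they are given as a description. Prmt7 had 23.3 to 34.2 CPM in C57BL/6J libraries, against 18.7, 18.2, 18.9, 28.9 and 26.8 CPM in Rag2-/-γc-/- libraries 7 to 11, with the same 3 libraries lowest as for Ralb.

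Levels of different genes were compared after division by the length of each gene's exons and scaling to the same total in every library. On this length-scaled level Rap1b was the highest member at 315 ± 20.9 (SD, n = 10 libraries), followed by Nras at 246 ± 114, Rap1a at 164 ± 19.7, Rala at 106 ± 15.4 and Ralb at 104 ± 19.2. Hras at 29.9 ± 4.76 and Rras at 27.4 ± 4.87 formed a lower tier, with Mras at 5.39 ± 0.964 and Rras2 at 0.397 ± 0.435 below it. Rala and Ralb could not be ordered, since each was the higher one in 5 libraries, and with the longest protein-coding transcript as length they were at 92.4 for Rala and 180 for Ralb. By union exon length Hras exceeded Rras in 8 of 10. Rap1b exceeded Nras in 7 of 10 libraries, the exceptions being Rag2-/-γc-/- libraries 7, 8 and 9.

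The place of Nras depended on the library. Its length-scaled level was 173 ± 16.4 in C57BL/6J libraries, close to that of Rap1a at 175 ± 14.3 (SD, n = 5). In Rag2-/-γc-/- libraries 7, 8, 9, 10 and 11 the level of Nras was 455, 398, 368, 179 and 195. Nras made up 16.3 to 20.2% of the summed length-scaled level of the 9 genes in the C57BL/6J libraries, against 38.8, 35.5 and 35.8% in libraries 7, 8 and 9 and 19.0 and 20.2% in libraries 10 and 11. The other 8 genes together came to 745 to 866 in C57BL/6J libraries, against 718, 725 and 660 in libraries 7, 8 and 9 and 765 and 772 in libraries 10 and 11, so the sum of the others was not raised where Nras was.

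**Figure D4:**
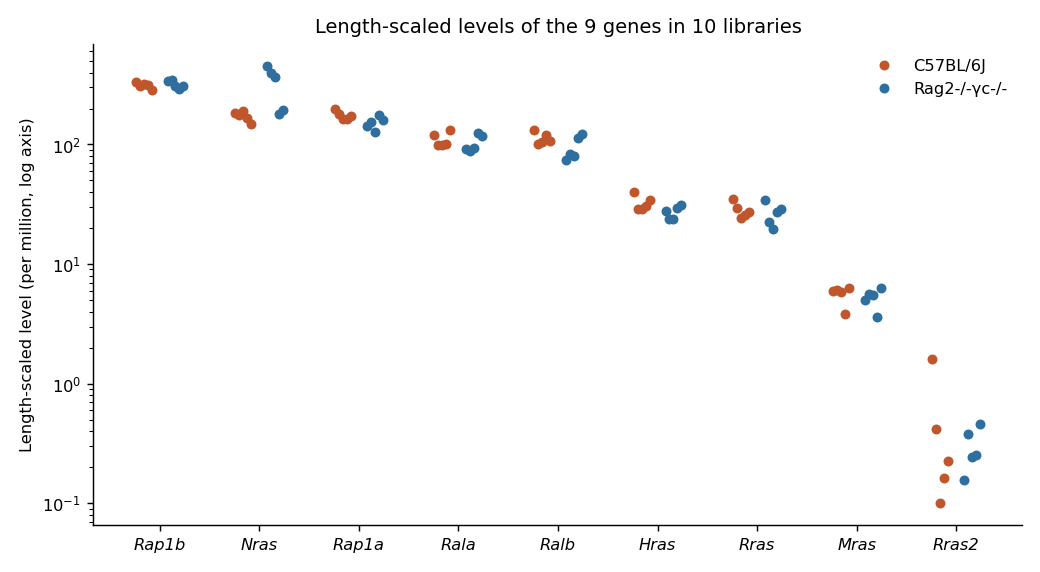
Length-scaled level (log axis) of the 9 genes in each library, C57BL/6J left of Rag2-/-γc-/- for each gene, ordered by the mean over 10 libraries. Rap1b leads at a mean of 315, Nras splits into 3 Rag2-/-γc-/- libraries at 368 to 455 and 7 libraries at 149 to 195, and Rras2 lies lowest.

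Genes that switch, modify or read these GTPases were taken from 12 lists with 110 entries, of which 109 were matched and 97 tested. Of the 97, 3 were higher and 10 lower in C57BL/6J recipients (13.4%, against 7.79% of all tested genes), with a median log2 fold change of -0.08 against 0.00 over all tested genes. All 3 that rose and 6 of the 10 that fell averaged under 10 CPM. Counts at an unadjusted p under 0.05 follow for several lists without the share of all tested genes at that threshold. The 7.79% holds after adjustment and is no measure for them. Hras, at an unadjusted edgeR p of 0.0941, ranked 4928 of 13967 tested genes by p, so small unadjusted p-values were common. Those counts are therefore a description and show no excess.

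Among exchange factors for RAS, 2 of 9 fell and 0 rose in edgeR. At an unadjusted p under 0.05 in edgeR 2 were higher and 3 lower, and DESeq2 called 2 higher and 2 lower. Sos2, which links receptor signals to RAS, had 28.0 to 36.7 CPM in C57BL/6J libraries, against 64.5, 56.9, 55.7, 33.7 and 41.6 CPM in Rag2-/-γc-/- libraries 7 to 11. Like Nras it was highest in libraries 7, 8 and 9. For Sos2 the log2 fold change came to -0.68 ± 0.16 (edgeR adjusted p = 0.0292), and to -0.26 (adjusted p = 0.472) without those 3. Rasgrf1, a calcium-responsive exchange factor best known from neurons, was low, at 0.122 to 0.435 CPM in C57BL/6J libraries, against 1.24, 1.35, 0.977, 0.457 and 0.455 CPM in Rag2-/-γc-/- libraries 7 to 11. It too was highest in libraries 7, 8 and 9, and its log2 ratio of -1.57 (edgeR adjusted p = 0.0442) was -0.60 (adjusted p = 0.738) without them. Sos1 (log2 fold change -0.13) and the adaptor gene Grb2 (-0.07) did not pass the threshold. Leaving out library 1, 4, 5, 6, 7, 8 or 9 ended the Sos2 call (edgeR adjusted p up to 0.0759), and leaving out any library other than 10 and 11 ended that of Rasgrf1 (up to 0.114).

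Among RAS GTPase-activating proteins, 1 of 10 rose and 2 fell. Dab2ip had 0.254 to 0.825 CPM in C57BL/6J libraries, against 3.80, 3.86, 1.92, 3.82 and 7.61 CPM in Rag2-/-γc-/- libraries 7 to 11. All 5 Rag2-/-γc-/- libraries lay above all C57BL/6J libraries. The log2 fold change of Dab2ip, -3.34 ± 0.42 (edgeR adjusted p = 0.000837), was -3.78 (adjusted p = 0.00533) without libraries 7, 8 and 9. Rasal2 rose, with 2.05, 0.543, 2.28, 2.35 and 0.981 CPM in C57BL/6J libraries 1, 3, 4, 5 and 6, against 0.0170 to 0.455 CPM. The more abundant Nf1, Rasa1, Rasa2, Rasa3, Rasa4 and Rasal3 were not past the edgeR threshold, with log2 fold changes of -0.32, -0.23, -0.73, 0.22, 0.13 and -0.08. Of the 10 listed, 7 had an unadjusted p under 0.05 in edgeR (2 higher and 5 lower), and DESeq2 called 2 higher and 4 lower. Without libraries 7, 8 and 9 the log2 fold change of Rasal2 was 2.17 (edgeR adjusted p = 0.178), against 2.54 with all libraries. The Rasal2 call was also lost when library 4, 5, 8 or 9 was left out (edgeR adjusted p up to 0.0706).

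On the RAP side, 1 of 6 tested exchange factors and adaptors and 1 of 7 GTPase-activating proteins fell, and 0 rose. At an unadjusted p under 0.05 in edgeR, 4 of the 6 exchange factors and adaptors were lower and 0 higher. Of the 7 GTPase-activating proteins, 2 were lower and 1 higher at that threshold. Rapgef5 had 50.2, 52.7, 53.3, 59.2 and 37.6 CPM in C57BL/6J libraries 1, 3, 4, 5 and 6, against 75.0, 69.4, 77.2, 76.2 and 84.8 CPM in Rag2-/-γc-/- libraries 7 to 11. Sipa1l2, which switches RAP off, had 4.30 to 6.66 CPM against 8.87 to 14.9 CPM. Both groups of values were apart, and the log2 fold changes were -0.60 ± 0.12 for Rapgef5 and -1.12 ± 0.17 for Sipa1l2 (edgeR adjusted p = 0.0103 and 0.00266). Without libraries 7, 8 and 9 they were -0.67 (adjusted p = 0.0772) and -1.18 (adjusted p = 0.0182). Of 5 tested RAP effectors 0 passed in edgeR (1 at an unadjusted p under 0.05, and 1 in DESeq2). The RAP1 effector gene Rassf5 had 106 to 128 CPM in C57BL/6J libraries, against 202, 203, 210, 121 and 132 CPM in Rag2-/-γc-/- libraries 7 to 11 (log2 fold change -0.53, edgeR adjusted p = 0.0673), and it passed without library 10 (0.0134) or 11 (0.0325).

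On the RAL side, 1 of 6 exchange factors fell, and 0 of 3 GTPase-activating proteins and 0 of 4 effectors passed in edgeR. At an unadjusted p under 0.05 these counts were 0 and 1, and likewise 0 and 1 in DESeq2. Ralgps1 had 2.17, 2.79, 3.05, 4.09 and 1.28 CPM in C57BL/6J libraries 1, 3, 4, 5 and 6, against 11.1, 9.56, 10.3, 5.39 and 5.79 CPM in Rag2-/-γc-/- libraries 7 to 11, a log2 fold change of -1.65 ± 0.31 (edgeR adjusted p = 0.00888). It was -1.06 (adjusted p = 0.224) without libraries 7, 8 and 9. Ralgapb, a subunit of the RAL GTPase-activating complex, had 80.1 to 102 CPM against 84.1 to 96.6 CPM (edgeR adjusted p = 0.484). Ybx3, listed as Csda, had 99.3 to 155 CPM in C57BL/6J libraries, against 55.0, 71.9, 76.9, 117 and 91.5 CPM in Rag2-/-γc-/- libraries 7 to 11 (edgeR adjusted p = 0.0926), lowest in the libraries where Ralb was lowest, and it passed without library 10 (0.0191).

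Of 13 genes of the RAF-MEK-ERK cascade and its scaffolds, 1 rose and 0 fell. The scaffold gene Ksr2 had 3.85, 3.13, 3.15, 4.44 and 3.17 CPM in C57BL/6J libraries 1, 3, 4, 5 and 6, against 1.02, 1.25, 0.905, 0.849 and 1.04 CPM in Rag2-/-γc-/- libraries 7 to 11. The groups were well apart, with a log2 fold change of 1.80 ± 0.19 (edgeR adjusted p = 0.000269) that held without libraries 7, 8 and 9 (1.90, adjusted p = 0.0112). The kinase genes Araf, Map2k1, Map2k2 and Mapk3 had log2 fold changes of -0.01 to 0.17, none past the threshold. Of 11 genes for lipid modification and membrane delivery 0 passed in edgeR or in DESeq2, and 3 had an unadjusted p under 0.05 in edgeR. The smallest p was that of Fntb, a subunit of the farnesyltransferase that modifies RAS proteins, at 14.2 to 23.2 CPM against 20.8 to 29.3 CPM (edgeR adjusted p = 0.107, and 0.0494 without Rag2-/-γc-/- library 10).

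Of 12 other RAS effectors 2 fell and 0 rose in edgeR. At an unadjusted p under 0.05 in edgeR 1 was higher and 5 lower, and DESeq2 called 1 higher and 3 lower. Rassf4 had 86.5, 162, 104, 129 and 89.8 CPM in C57BL/6J libraries 1, 3, 4, 5 and 6, against 253, 255, 232, 126 and 166 CPM in Rag2-/-γc-/- libraries 7 to 11, with the top 3 again in libraries 7, 8 and 9 (edgeR adjusted p = 0.0419, and 0.650 without them). Plce1, a phospholipase C that binds RAS, had 33.0 to 47.2 CPM against 49.3 to 57.5 CPM (log2 fold change -0.43, edgeR adjusted p = 0.0364, and -0.45 with 0.221 without libraries 7, 8 and 9). The Rassf4 call was lost when library 1, 4, 5, 6, 7, 8 or 9 was left out (edgeR adjusted p up to 0.108), and that of Plce1 when library 1, 5, 6, 8, 9 or 11 was (up to 0.0933). Among 11 tested further RAS family GTPases 1 rose and 1 fell. Rasl11b, an atypical member, had 0.880 to 1.78 CPM in C57BL/6J libraries, against 10.4, 9.65, 7.96, 4.97 and 4.02 CPM in Rag2-/-γc-/- libraries 7 to 11 (log2 fold change -2.50 ± 0.30, edgeR adjusted p = 0.000620), and -1.78 without libraries 7, 8 and 9 (adjusted p = 0.0187). Rhebl1, a relative of the mTOR activator Rheb, had 2.86 to 4.46 CPM against 2.03 to 2.78 CPM (edgeR adjusted p = 0.0445, and 0.383 without libraries 7, 8 and 9), a call that leaving out library 4, 5, 6, 7, 8, 9 or 11 ended (up to 0.111).

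**Figure D5:**
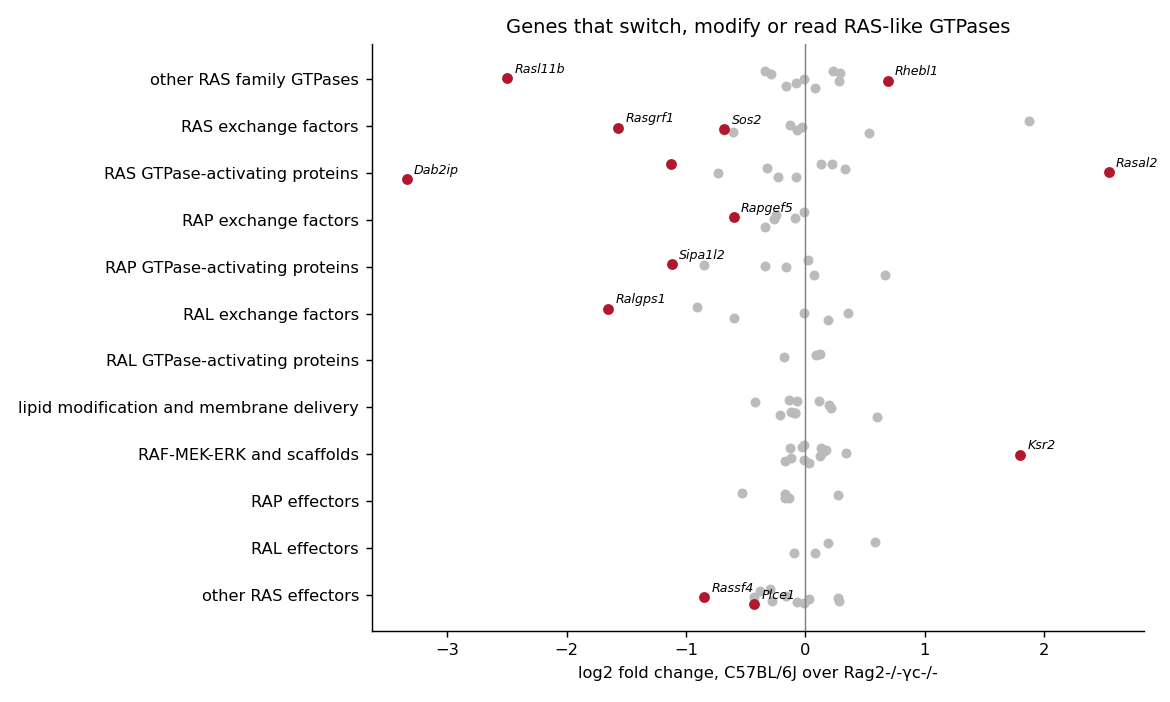
Log2 fold changes, C57BL/6J over Rag2-/-γc-/- recipients, of 97 tested genes in 12 lists (points, spread vertically within a list for legibility), with the 13 past the edgeR threshold in red and 12 of them named. Of the 13, 10 lie left of 0 and 3, Rhebl1, Rasal2 and Ksr2, lie right of it.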

How the data were processed

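Poly(A)-selected RNA of GFP+ splenocytes was sequenced as single 75-base reads, per the labels' protocols. What the authors deposited are expected counts, one row for each Ensembl gene. Cutadapt 1.11, STAR 2.5.2a, RSEM 1.2.30, edgeR and GRCm38 are named, per the submitters' processing notes, without their roles. Each column carried a library's title. Expected counts (15.3 to 17.3% of values per library not whole) were rounded. The 20 within-group pairs of libraries differed beyond sampling noise (chi-square over degrees of freedom 8.13 to 188), so 10 were kept.

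The test was edgeR 4.0.16's quasi-likelihood F test (R 4.3.3, TMM, filterByExpr with minimum count 10, group term only), Benjamini-Hochberg adjusted over 13967 genes, threshold 0.05. Log2 fold changes are C57BL/6J over Rag2-/-γc-/-, and each SE is the unshrunken coefficient's size over the root of F. CPM are TMM-scaled. Length-scaled levels used union exon lengths of GENCODE M21, which held 95.3% of identifiers. Likeness used log2 CPM with prior count 2. Alternatives included DESeq2 1.42.0 and limma 3.58.1. The fit was tested on simulated data. Members and lists were chosen with earlier results of these data known. Pathway genes named were up to 4 called per list, or the 1 with the smallest p, and other values are given as context chosen after they were seen. Some genes and a sequence that the rule takes in are not reported here.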

Additional observations from a re-analysis of the deposited data

Results flagged for a closer look

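Among 54 groups of 5 libraries (members and other genes chosen by rule, in each recipient type), 5 held a library far from the other 4, where chance flags about 1 in 20. Rras2 had 2.14 CPM in C57BL/6J library 1, against 0.127 to 0.543 CPM in the other 4. Mras had 6.70 CPM in Rag2-/-γc-/- library 10, against 10.2 to 11.4 CPM. Rap1b had 365 CPM in C57BL/6J library 1, against 312 to 327 CPM, Dab2ip 0.825 CPM against 0.254 to 0.392 CPM, and Ralgapb 80.1 CPM against 96.3 to 102 CPM. Of these 5 values, 4 belong to C57BL/6J library 1, which had the highest B and plasma cell (116 CPM, against 3.65 to 18.9 CPM in the other 4), erythroid (144 against 14.9 to 48.1 CPM) and red pulp macrophage sums (201 against 23.2 to 185 CPM) of its group. The part of other cells in them was not tested.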

How the results depend on the processing

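Nras kept its direction in all 20 alternatives and passed the threshold in 9. Its log2 fold change was -0.82 in limma-voom (adjusted p = 0.0827), -0.93 with a robust quasi-likelihood fit (0.0513), -0.10 without Rag2-/-γc-/- libraries 7, 8 and 9, and -1.09 to -0.74 when 1 library was left out. The number of members called lower was 0 in limma-voom, in the robust fit and without libraries 7, 8 and 9, and 0 to 1 with 1 library left out. The number called higher was 2 in limma-voom with sample quality weights, Hras (0.24, adjusted p = 0.0498) and Ralb (0.31, adjusted p = 0.00885), and 1 without libraries 10 and 11, Ralb (0.45). In the first of these settings 3306 of 13967 tested genes were called higher, and in the second 19.3%. Signs turned for Rras2 (-0.48) and Mras (-0.06) in limma-voom with sample quality weights and, without libraries 7, 8 and 9, for Rap1b (0.09), Rala (-0.10) and Ralb (-0.04). With 1 library left out the ranges were -0.04 to 0.20 for Rras, -0.41 to 1.00 for Rras2, -0.02 to 0.21 for Mras and -0.01 to 0.15 for Rala. Rap1a kept its direction and was not called in any alternative.

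Over all genes 464 were called higher and 624 lower. These counts were 803 and 1155 in DESeq2, 3306 and 3218 in limma-voom with sample quality weights, 2786 and 2518 (36.7% of tested genes) without libraries 10 and 11, 146 and 127 (1.87%) without libraries 7, 8 and 9, and 275 to 1078 and 303 to 1323 with 1 library left out. For pathway genes, 3 higher and 10 lower, the counts were 9 and 16, 18 and 33, 12 and 28, and 1 and 3 in the same 4 settings, and 1 to 8 and 5 to 20 with 1 library left out. With the longest protein-coding transcript as length, the level of Ralb was 180, that of Rap1a 143 and that of Rap1b 269, which puts Ralb above Rap1a and Rala (92.4). A level without length was not run, since an annotation of the build was at hand. RLE and upper-quartile factors, no count filter and a filter of 1 CPM in 5 libraries changed no call of a member, but Rras2 was not tested under the last. The causes of these changes were not tested. Leaving out libraries 10 and 11, or 7, 8 and 9, was chosen with earlier results known. No paired analysis was possible because the groups share no replicate number. At 5 to 70 counts per library, depth limits Rras2.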
